A study of Homo sapiens with 9 samples.

Results

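The metallothionein and zinc response genes described here are 8 genes chosen by symbol from a count table of 20463 annotated genes: the metallothioneins *MT1E*, *MT1F*, *MT1G*, *MT1M*, *MT1X* and *MT2A*, the zinc sensor *MTF1* and the zinc exporter *SLC30A1*. All 8 had a row in the table, and 4 of them (*MT2A*, *MT1X*, *MTF1* and *SLC30A1*) had enough reads to be tested. RNA came from A375, an established human melanoma cell line, and was measured by mRNA sequencing. One group of 3 libraries came from cells exposed for 48 h to 100 µM Salvianolic acid B (SalB), a phenolic compound of the herb *Salvia miltiorrhiza*. A second group of 3 had received 200 µM for 48 h, and 3 libraries came from untreated A375 cells grown in the same way without SalB. All 9 libraries derive from this single line, and the labels name no vehicle and no time for the untreated cells.

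Metallothioneins are small cysteine-rich proteins that bind zinc and copper, and also cadmium, in the cytosol. When free zinc rises, the zinc-finger factor MTF1 binds metal response elements and activates metallothionein genes together with *SLC30A1*, whose product ZnT1 exports zinc across the plasma membrane. Metallothionein genes also respond to oxidants, glucocorticoids and cytokines. Tumours, melanoma among them, express the isoforms unevenly.

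RefSeq promoter windows, from 250 bases before to 50 bases after the transcription start on GRCh38.p14, were at hand for 4 of the 8 genes. They are shown because metal response elements are the sequence through which MTF1 acts. The 250 upstream bases are printed 5′ to 3′ along the gene's own strand, and capitals mark each match to the cores TGCACNC or TGCGCNC on either strand.
*MT2A* promoter, chr16:56608334-56608583, plus strand: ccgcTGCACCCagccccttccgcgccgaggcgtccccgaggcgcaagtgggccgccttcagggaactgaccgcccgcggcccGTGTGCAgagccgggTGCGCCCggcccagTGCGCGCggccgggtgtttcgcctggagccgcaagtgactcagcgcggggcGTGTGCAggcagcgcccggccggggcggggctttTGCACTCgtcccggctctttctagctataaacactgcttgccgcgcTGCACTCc
*MT1X* promoter, chr16:56682220-56682469, plus strand: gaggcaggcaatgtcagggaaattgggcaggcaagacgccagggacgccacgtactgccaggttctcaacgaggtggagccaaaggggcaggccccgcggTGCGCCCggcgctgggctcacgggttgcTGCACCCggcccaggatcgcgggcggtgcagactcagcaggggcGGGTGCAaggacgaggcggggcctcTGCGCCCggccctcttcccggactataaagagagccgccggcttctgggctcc
*SLC30A1* promoter, chr1:211579162-211579411, minus strand: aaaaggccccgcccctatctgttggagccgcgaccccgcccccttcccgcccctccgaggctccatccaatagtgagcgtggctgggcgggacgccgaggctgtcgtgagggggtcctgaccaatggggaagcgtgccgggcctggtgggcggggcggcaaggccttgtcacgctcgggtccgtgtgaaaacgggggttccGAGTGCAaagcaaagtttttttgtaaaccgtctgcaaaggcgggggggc
Over the whole 300-base window, *MT2A* held 8 matches, *MT1X* 4, *SLC30A1* 2 and *MTF1* 0, and none of these matches overlapped another. Of 35116 RefSeq promoter windows of the same length, 29.6% held at least 1 match, 8.6% at least 2, 0.601% at least 4 and 0.0199% at least 8. In *SLC30A1* 1 match lay at 49 to 43 bases before the start and the other at 25 to 31 bases after it. RefSeq places the *SLC30A1* start upstream of the one in GENCODE v29 and the *MT2A* start downstream of it. A match describes the letters of the window and does not show binding.

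**Figure D1:**
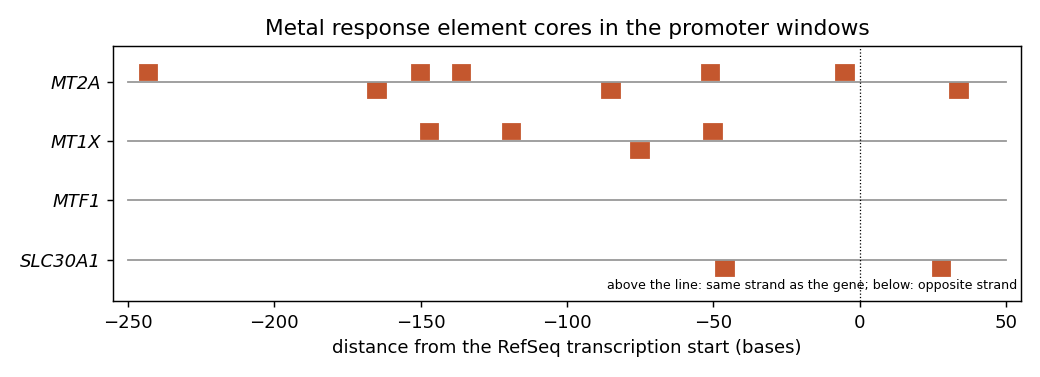
Position of each match to the metal response element core in the promoter windows of the 4 tested genes, in bases from the RefSeq start. Boxes above a line are on the strand of the gene and boxes below it on the opposite strand; *MT2A* has 8 boxes, *MT1X* 4, *SLC30A1* 2 and *MTF1* 0.

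Each library held between 27005939 and 30234985 counts on annotated genes. Levels are given as CPM, read counts divided by the scaled library size. The neural crest factor *SOX10* averaged 341 CPM in untreated cells, 529 CPM at 100 µM and 472 CPM at 200 µM. In the same order *MITF* averaged 28.6, 17.6 and 19.97 CPM, and *S100B* 41.6, 62.3 and 19.1 CPM. *PAX3* averaged 13.6 CPM in untreated cells and 19.6 CPM at 200 µM. These lineage genes therefore did not all change in the same direction. Of 9 melanocyte lineage markers 7 had more than 3 counts in every library, but the pigment genes *PMEL*, *MLANA* and *TYR* lay below 1 CPM on average in each group. Of 7 leukocyte markers 2 were at 0 in all libraries, and the 7 summed to 21.7 to 25.3 CPM in untreated cells, 18.5 to 20.5 CPM at 100 µM and 59.4 to 84.6 CPM at 200 µM. *CD68*, which is also a lysosomal gene, held most of that sum, with averages of 19.2, 15.5 and 65.5 CPM in the same order. The pan-leukocyte marker *PTPRC* averaged at most 0.0455 CPM in any group. Epithelial markers summed to between 1.18 and 1.89 CPM in any library, and fibroblast and endothelial markers to 19.4 to 20.6 CPM in untreated cells, 49.996 to 54.05 CPM at 100 µM and 27.4 to 33.9 CPM at 200 µM. Their part in the results was not tested, and in bulk RNA more cells expressing a gene cannot be told apart from more RNA per cell.

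The library labelled SalB 200 µM replicate 3 stood apart from the other 200 µM libraries. Its 13 mitochondrially encoded mRNAs took 4.75% of counts, against 1.87% and 1.83% in 200 µM replicates 1 and 2. With log2 levels taken relative to untreated cells, the GC gap (median of the top GC octile of genes minus that of the bottom octile) was -0.27 in replicate 3, against 0.43 and 0.89 in replicates 1 and 2. The GC gap was -0.006, -0.15 and 0.16 in untreated replicates 1, 2 and 3. At 100 µM it was 0.87, 0.66 and 0.64 in the same order. By GC gap, 200 µM replicate 3 thus lay nearer the untreated libraries than 200 µM replicates 1 and 2 did. The like gap of the shortest minus the longest genes was -0.39 in replicate 3, against -0.16 and -0.02 in replicates 1 and 2. Calls of the members that rest on this library are given with and without it.

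At 200 µM against untreated cells, *SLC30A1*, *MTF1* and *MT1X* were higher and *MT2A* was not called, so 3 of 4 tested members rose, where 37.3% of all 13968 genes tested were called, 19.8% higher and 17.5% lower. In the comparison of 100 µM with untreated cells 0 of 4 members were called, where 37.1% of all genes were called, 18.9% higher and 18.2% lower. With an unadjusted p under 0.05 the number at 100 µM was also 0, and DESeq2 called 0. Between the doses, 3 of 4 were higher at 200 µM than at 100 µM, where 44.4% of all genes were called, 22.4% higher and 21.9% lower. In fits without 1 library, 2 to 3 members were called in each comparison of 200 µM. The call that ended was that of *MT1X*. It ended in 2 of 19 alternative fits against untreated cells and in 13 of 19 between the doses. Calls are those of the edgeR quasi-likelihood test at an adjusted p under 0.05, taken over all 13968 genes. The comparisons share libraries, so their counts are not independent of one another.

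**Figure D2:**
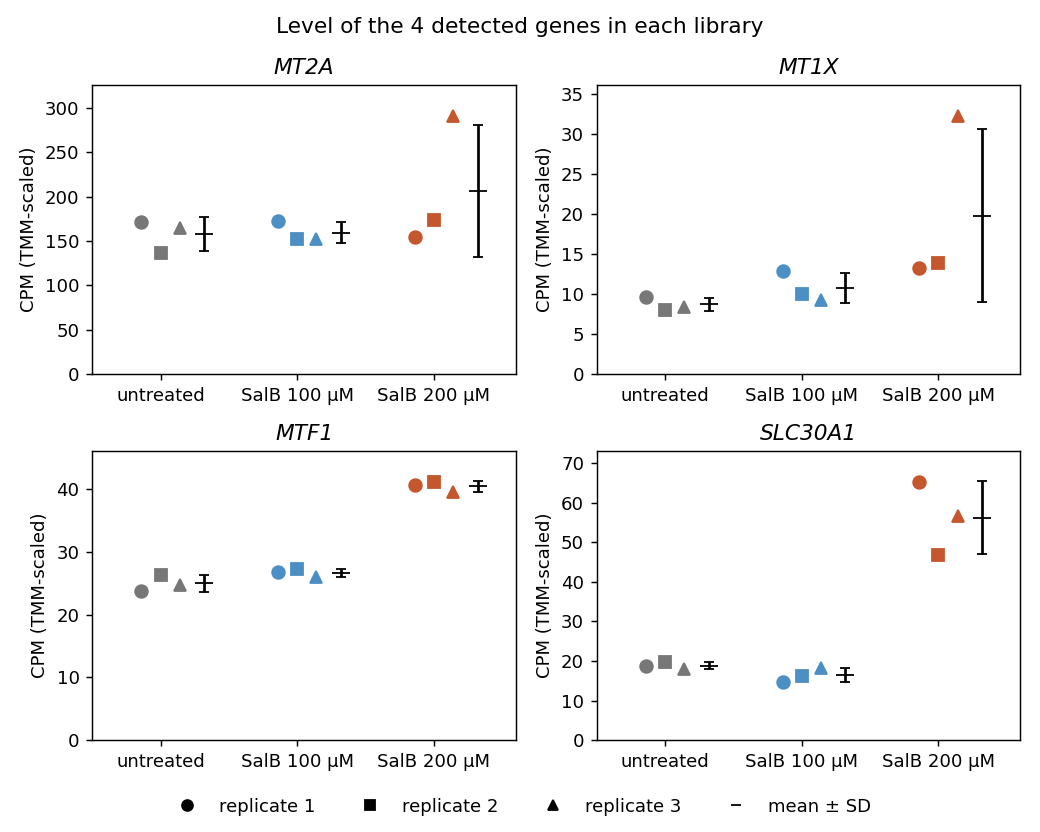
Level of the 4 detected genes in each library, in CPM, with the mean and SD of 3 libraries beside each group. All 200 µM points of *SLC30A1*, *MTF1* and *MT1X* lie above every untreated and 100 µM library, in *MT1X* only narrowly, and the *MT2A* groups overlap. In *MT2A* and *MT1X* 1 library of the 200 µM group, at 291 and 32.2 CPM, lies far above the rest of its group.

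Most reads counted on metallothionein genes were counted on 1 gene. *MT2A* (ENSG00000125148, protein-coding, GRCh38 chromosome 16, 56608199 to 56609497, plus strand), the main ubiquitous isoform, took 90.0% to 95.1% of all metallothionein counts in a library. Its level was 172, 136 and 165 CPM in the untreated libraries, 173, 153 and 153 CPM at 100 µM, and 154, 174 and 291 CPM at 200 µM. The 3 groups overlap, and only 200 µM replicate 3 stands clearly above the untreated and 100 µM libraries. The log2 fold change was 0.39 ± 0.21 (SE; 95% interval -0.10 to 0.87; edgeR adjusted p = 0.19) at 200 µM against untreated cells. Without 200 µM replicate 3 it was 0.07 (edgeR adjusted p = 0.59). At 100 µM it was 0.02 ± 0.21, with an interval of -0.47 to 0.50 (edgeR adjusted p = 0.96).

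*MT1X* (ENSG00000187193, protein-coding, chromosome 16, 56682424 to 56684196, plus strand), a further zinc-binding isoform at the far end of the cluster, was the other metallothionein with reads. It had 279, 234 and 250 counts in untreated libraries, 400, 310 and 285 counts at 100 µM, and 366, 390 and 812 counts at 200 µM. In CPM that is 9.67, 8.06 and 8.44 in untreated cells, 12.8, 10.1 and 9.24 at 100 µM, and 13.3, 13.9 and 32.2 at 200 µM. Every 200 µM library lies above every untreated and every 100 µM library, although 200 µM replicate 1 exceeds 100 µM replicate 1 only narrowly. *MT1X* was 2.27-fold higher at 200 µM than in untreated cells, a log2 fold change of 1.18 ± 0.32 (edgeR adjusted p = 0.019). Without 200 µM replicate 3 the log2 fold change was 0.65 (edgeR adjusted p = 0.0035), and the call was lost without untreated replicate 2 (1.13, edgeR adjusted p = 0.068) or untreated replicate 3 (1.16, edgeR adjusted p = 0.061). Between 200 µM and 100 µM it was 0.88 ± 0.32 (edgeR adjusted p = 0.049), a call just inside the threshold. It was lost without 200 µM replicate 3 (0.33, edgeR adjusted p = 0.078), and also on leaving out any 1 of the 6 untreated and 100 µM libraries. The value at 100 µM against untreated cells was 0.30 ± 0.32 (95% interval -0.43 to 1.02; edgeR adjusted p = 0.50).

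The ratio of *MT1X* to *MT2A* counts within a library does not depend on how libraries are scaled. It was 0.0563, 0.0592 and 0.0512 in untreated cells, 0.0742, 0.0658 and 0.0605 at 100 µM, and 0.0860, 0.0799 and 0.111 at 200 µM. The groups do not overlap in this ratio, and each 200 µM library lies above each 100 µM library, which in turn lie above the untreated ones. An exact two-sided permutation test of 3 against 3 libraries cannot give a p below 0.1, and no other test of the ratio was made. The ratio shows unequal change of the pair and not which of them changed. *MT1X* and *MT2A* together summed to 166 ± 19.6 CPM in untreated cells, 170 ± 13.6 CPM at 100 µM and 226 ± 84.7 CPM at 200 µM (SD, n = 3 each). Without replicate 3 the 200 µM mean was 178 CPM, inside the range of 144 to 181 CPM of the untreated libraries.

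Sequence shared with other annotated genes limits what can be said of *MT1X* more than of *MT2A*. Of all 100-base stretches of the *MT2A* reference transcript, 100% occurred in no transcript of another GENCODE v29 gene, and of 50-base stretches 95.1%. For the *MT1X* reference transcript of 538 bases the shares were 49.2% and 44.2%. Every shared stretch of that transcript was shared with AC026461.1, an annotated transcript on the same strand that covers 18.1% of the *MT1X* exons. AC026461.1 has no row in the count table. Other annotated *MT1X* transcripts do share 50-base stretches with *MT2A*, *MT1A*, *MT1F*, *MT1G* and *MT1M*. Not given in the sources used here are the read length and the handling of reads that match several genes, so the *MT1X* values are uncertain in this respect.

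*MT1E*, *MT1F*, *MT1G* and *MT1M* were listed at 0 counts in all 9 libraries. All 4 encode zinc- and copper-binding proteins and lie on chromosome 16 between *MT2A* and *MT1X*: *MT1E* at 56625475 to 56627112, *MT1M* at 56632233 to 56633986, *MT1F* at 56657694 to 56660698 and *MT1G*, on the minus strand, at 56666731 to 56668065. Where a gene's reads are counted on its own row, a count of 0 allows a level of up to 3 counts in a library, which is 0.0963 to 0.119 CPM across the 9 libraries and covers counting error only. No fold change is given for them, since all 3 groups are at 0. The 6 other metallothionein rows of the table, *MT1A*, *MT1B*, *MT1H*, *MT1HL1*, *MT3* and *MT4*, were at 0 in all 9 libraries as well. Thus 10 of 12 metallothionein rows were at 0, beside 2655 of 19705 protein-coding genes, or 13.5%.

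The reference transcripts of these 4 members hold sequence of their own. Of their 100-base stretches, 100% were found in no other gene, and of their 50-base stretches 89.4% for *MT1E*, 96.4% for *MT1F*, 85.7% for *MT1G* and 92.9% for *MT1M*. The table also holds 2142 transcripts assembled by the authors without positions, so these could not be placed relative to the cluster. Whether reads of the 4 genes were assigned elsewhere was not tested.

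*MTF1* (ENSG00000188786, protein-coding, chromosome 1, 37809567 to 37859620, minus strand) encodes the zinc-sensing transcription factor of the pathway. It had 23.8, 26.4 and 24.8 CPM in untreated libraries, 26.8, 27.3 and 26.1 CPM at 100 µM, and 40.8, 41.2 and 39.5 CPM at 200 µM. The 200 µM libraries form a tight group above all others, and replicate 3 lies with its group here. *MTF1* was 1.62-fold higher at 200 µM than in untreated cells (40.5 ± 0.870 against 24.98 ± 1.28 CPM, SD, n = 3 each), a log2 fold change of 0.70 ± 0.08 (95% interval 0.52 to 0.87; edgeR adjusted p = 1.9e-04). Against 100 µM it was 0.60 ± 0.08 higher on the log2 scale (edgeR adjusted p = 2.8e-04). The value at 100 µM was 0.10 ± 0.08 (95% interval -0.08 to 0.27; edgeR adjusted p = 0.37). Among all genes tested 12.2% had a larger log2 fold change at 200 µM against untreated cells.

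*SLC30A1* (ENSG00000170385, protein-coding, chromosome 1, 211571568 to 211578742, minus strand), encoding the plasma membrane zinc exporter ZnT1, had the largest change of the members. It had 540, 571 and 534 counts in untreated libraries, 460, 497 and 564 counts at 100 µM, and 1800, 1315 and 1424 counts at 200 µM. In CPM the untreated libraries lay at 18.7, 19.7 and 18.0, those at 100 µM at 14.8, 16.1 and 18.3, and those at 200 µM at 65.3, 46.8 and 56.6. The lowest 200 µM library is more than 2-fold above the highest of the other 6, and the untreated and 100 µM groups overlap. *SLC30A1* was 2.99-fold higher at 200 µM than in untreated cells, a log2 fold change of 1.58 ± 0.13 (95% interval 1.28 to 1.88; edgeR adjusted p = 4.2e-05), and 2.51% of genes had a larger one. Against 100 µM it was 3.43-fold higher (1.78 ± 0.14 on the log2 scale; edgeR adjusted p = 1.3e-05). At 100 µM against untreated cells the value was -0.20 ± 0.13 (95% interval -0.50 to 0.10; edgeR adjusted p = 0.28), and its sign turned when the GC trend of each library was removed (0.17; edgeR adjusted p = 0.27). The *SLC30A1* transcript is GC-poor at 38.0%. The 200 µM libraries at 65.3, 46.8 and 56.6 CPM had GC gaps of 0.43, 0.89 and -0.27, in that order. Apart from the fits with the GC trend removed, the part of GC content in these levels was not tested.

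**Figure D3:**
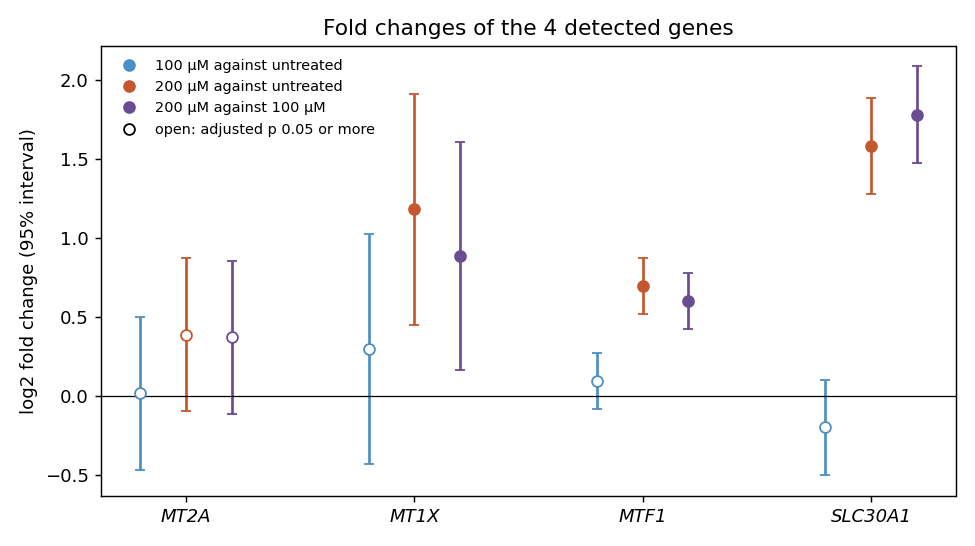
Log2 fold change of the 4 tested genes in each comparison with its 95% interval; filled points passed an adjusted p of 0.05. *SLC30A1* and *MTF1* have narrow intervals above 0 in both comparisons of 200 µM, the *MT1X* intervals are wide and the *MT2A* intervals include 0.

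Levels between genes were compared per union exon length, as length-scaled TPM computed from the counts. In untreated cells *MT2A* stood at 450 ± 50.3 TPM, *MT1X* at 18.3 ± 1.52 TPM, *SLC30A1* at 12.8 ± 0.613 TPM and *MTF1* at 11.6 ± 0.722 TPM (SD, n = 3 each). The lowest pair of these lie within about their spread of each other, at 12.3 to 13.5 TPM for *SLC30A1* and 10.9 to 12.3 TPM for *MTF1*. At 200 µM *MT2A* had 568 ± 155 TPM, *MT1X* 39.5 ± 18.1 TPM, *SLC30A1* 37.4 ± 7.08 TPM and *MTF1* 18.4 ± 1.75 TPM. The *MT1X* level at 200 µM was 28.6, 29.6 and 60.4 TPM in replicates 1, 2 and 3, and that of *SLC30A1* 45.5, 32.4 and 34.3 TPM. With these lengths *SLC30A1* lay above *MT1X* in replicates 1 and 2 and below it in replicate 3. The union exon length of *MT1X* is 1773 bases, but its coding reference transcript has 538. For *SLC30A1* both are 5474 bases. A shorter length raises the TPM of *MT1X*, so the order of the pair depends on the length used as well as on that library.

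Of 10 further genes of zinc export or sequestration 8 were tested, and at 200 µM against untreated cells 1 was higher and 1 lower, with a median log2 fold change of 0.01 beside 0.00 over all genes. Of all genes tested 37.3% were called at 200 µM and 37.1% at 100 µM, and with 8 genes the counts at both doses lie near those shares. *SLC30A4*, which loads zinc into vesicles, was higher (0.38 ± 0.12; edgeR adjusted p = 0.031). *SLC30A9*, a mitochondrial zinc transporter, was lower (-0.36 ± 0.10; edgeR adjusted p = 0.021). Neither call held under all alternatives: that of *SLC30A4* ended in 6 of 19 and that of *SLC30A9* in 5 of 19, in both cases also when any untreated library or 200 µM replicate 1 was left out. At 100 µM 2 were higher and 2 lower. *SLC30A5*, which supplies zinc to the secretory pathway, changed by -0.33 ± 0.09, *SLC30A9* by -0.40 ± 0.10, and *SLC30A3*, at 1.58 CPM against 0.811 CPM, by 0.96 ± 0.25 (largest edgeR adjusted p of these, 0.016). *SLC30A2*, with 9 to 15 counts at 100 µM against 2 to 5 in untreated cells, was also higher (1.72 ± 0.45; edgeR adjusted p = 0.016). At 200 µM *SLC30A2* was at 1.34 ± 0.47 (edgeR adjusted p = 0.052). The 100 µM calls of *SLC30A5*, *SLC30A9* and *SLC30A3* were lost without untreated replicate 2 or 100 µM replicate 1, and those of *SLC30A5* and *SLC30A3* also without untreated replicate 1. With the GC trend removed, *SLC30A5* was at -0.06 and *SLC30A9* at -0.08 at 100 µM, and *SLC30A9* at -0.18 at 200 µM. Without 200 µM replicate 3 the counts were 2 higher and 2 lower at 200 µM, and 2 higher and 4 lower at 100 µM.

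Of 14 zinc importers of the SLC39 family 11 were tested, and at 200 µM against untreated cells 1 was higher and 1 lower (2 and 3 without 200 µM replicate 3), beside 19.8% of all genes called higher and 17.5% lower. *SLC39A14*, which carries zinc, iron and manganese, was 1.52-fold higher (0.60 ± 0.17; edgeR adjusted p = 0.019). Its level was 156, 150 and 95.2 CPM at 200 µM, so replicate 3 lay close to the untreated libraries at 84.8 to 91.3 CPM. The *SLC39A14* call was lost without untreated replicate 1 or 2 or without 200 µM replicate 1 or 2, and when the compared groups were fitted by themselves. *SLC39A11*, a zinc importer of intracellular membranes, had 27.9, 24.5 and 24.5 CPM in untreated libraries, 38.9, 38.5 and 39.7 CPM at 100 µM, and 15.7, 17.2 and 12.1 CPM at 200 µM. The 3 *SLC39A11* groups do not overlap and their order does not follow the dose. *SLC39A11* was 1.71-fold lower at 200 µM than in untreated cells (-0.77 ± 0.13; edgeR adjusted p = 0.0017) and 1.52-fold higher at 100 µM (0.61 ± 0.13; edgeR adjusted p = 0.0058), and both calls held in all 19 alternatives.

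At 100 µM 1 zinc importer was higher and 3 were lower (3 and 3 without 200 µM replicate 3), near the 37.1% of all genes called at that dose. *SLC39A6*, a plasma membrane importer, stood at 100, 100 and 108 CPM at 100 µM, against 169, 169 and 163 CPM in untreated cells (-0.70 ± 0.13; edgeR adjusted p = 0.0031). *SLC39A10*, its close relative, which MTF1 is known to repress in mouse, was 1.58-fold lower at 100 µM (-0.66 ± 0.14; edgeR adjusted p = 0.0060). Both calls held in all 19 alternatives, though with the GC trend of the libraries removed the sizes were as low as -0.46 for *SLC39A6* and -0.26 for *SLC39A10*. In the comparison of 200 µM with untreated cells *SLC39A10* was at -0.15 ± 0.14 (edgeR adjusted p = 0.44). Relative to 100 µM, 4 importers were higher at 200 µM and 1 was lower, the lower being *SLC39A11* (-1.38 ± 0.13), beside 44.4% of all genes called between the doses.

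**Figure D4:**
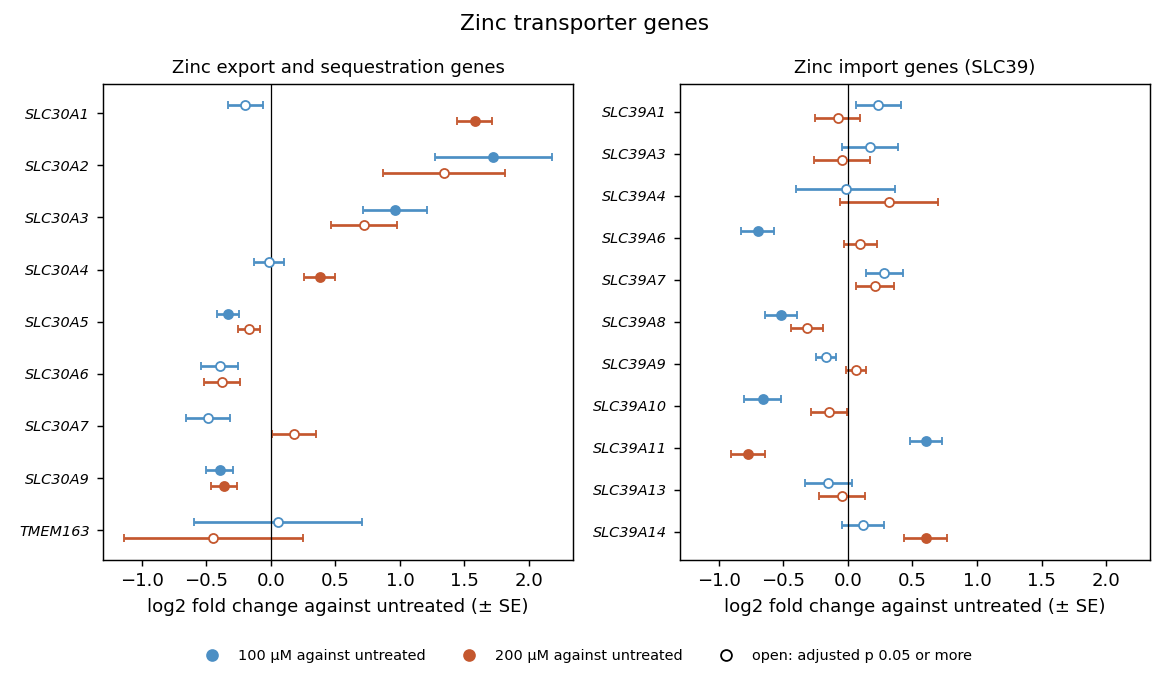
Log2 fold change against untreated cells, with its SE, of the tested zinc transporter genes at 100 µM and 200 µM; filled points passed an adjusted p of 0.05. *SLC30A1* at 1.58 is the filled point farthest above 0 at 200 µM, and *SLC39A11* lies on opposite sides of 0 at the 2 doses.

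Of 11 genes known to respond to metals and oxidants 9 were higher at 200 µM than in untreated cells, where 19.8% of all genes were called higher, with a median log2 fold change of 1.23. The count was 10 without 200 µM replicate 3 and lay between 8 and 10 over the 19 alternatives. *HMOX1*, encoding heme oxygenase 1, had 243, 267 and 177 CPM at 200 µM, against 7.90, 7.68 and 6.92 CPM in untreated cells, a log2 fold change of 4.93 ± 0.19 (edgeR adjusted p = 7.6e-07). *HSPA1A*, an inducible HSP70 gene, was 7.63-fold higher (2.93 ± 0.16), but its near-identical copy *HSPA1B* can share its reads. *TXNRD1*, encoding thioredoxin reductase 1, was 2.74-fold higher (1.45 ± 0.08). At 100 µM 2 of the 11 were higher and 3 lower (4 and 5 without 200 µM replicate 3), near the 37.1% of all genes called there. Among them *TXNRD1* (-0.68 ± 0.08) and the quinone reductase gene *NQO1* (-0.58 ± 0.10), with 17.7% of its exons overlapping another gene, were lower. *HSPA1A* was higher (0.78 ± 0.16), a call that ended with the GC trend removed.

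Metallothioneins bind copper as well as zinc. Of 13 copper handling genes, 3 were higher and 1 lower at 200 µM than in untreated cells with a median of 0.05; without 200 µM replicate 3 the counts were 4 and 4. With all libraries, 37.3% of all genes were called, 19.8% higher and 17.5% lower. *ATOX1*, a copper chaperone, was 1.53-fold higher (0.62 ± 0.11; edgeR adjusted p = 0.0019) and *SLC31A1*, the plasma membrane copper importer, 1.34-fold higher (0.42 ± 0.09; edgeR adjusted p = 0.0063). *COX11*, an assembly factor of cytochrome oxidase with 14.9% of its exons overlapping other genes, was 1.66-fold lower (-0.73 ± 0.12; edgeR adjusted p = 0.0012). These 3 calls held in all 19 alternatives. At 100 µM 1 copper gene was higher and 2 lower (2 and 5 without 200 µM replicate 3), beside 37.1% of all genes called. The copper exporter gene *ATP7B* was higher (0.97 ± 0.25; edgeR adjusted p = 0.016), a call lost without untreated replicate 1 (edgeR adjusted p = 0.058). *COX11* (-0.48 ± 0.12) and the copper chaperone gene *COX17* (-0.77 ± 0.25), with 17.6% of its exons overlapping another gene, were lower, and the *COX17* call was lost on leaving out any 1 untreated or 100 µM library and with the GC and length trends removed (-0.41).

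Glucocorticoids also induce *MT2A*, so the receptor and its targets were read alongside. Of 10 tested genes 5 were higher and 1 lower at 200 µM than in untreated cells with a median of 0.42; without 200 µM replicate 3 the counts were 6 and 2. Over all genes 19.8% were called higher and 17.5% lower at that dose. *ERRFI1*, a feedback inhibitor of EGFR, was 2.12-fold higher (1.09 ± 0.09), *DUSP1*, a MAP kinase phosphatase, 2.54-fold (1.34 ± 0.12), and the kinase gene *SGK1* 1.49-fold (0.57 ± 0.07). The lower gene was *FKBP5* (-0.54 ± 0.10; edgeR adjusted p = 0.003). At 100 µM 1 was higher and 3 lower (2 and 3 without 200 µM replicate 3), beside 18.9% of all genes called higher and 18.2% lower. There *ERRFI1* (-0.78 ± 0.09) and *DUSP1* (-0.86 ± 0.13) were lower, and the clock gene *PER1* was higher (1.02 ± 0.11, and 0.57 at the lowest of the 19 alternatives). The calls given here for *ERRFI1*, *DUSP1*, *SGK1* and *PER1* held in all 19 alternatives.

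Genes flanking the metallothionein cluster on chromosome 16 gave a view of the region. Of 9 flanking genes 7 were tested. At 200 µM 1 was higher and 1 lower than in untreated cells (2 and 1 without 200 µM replicate 3), and at 100 µM 3 were higher and 0 lower (4 and 0). Both counts lie near the shares of all genes called, 37.3% at 200 µM and 37.1% at 100 µM. *HERPUD1*, an endoplasmic reticulum stress gene, was 1.80-fold higher at 200 µM (0.85 ± 0.10; edgeR adjusted p = 2.7e-04). *NUDT21*, a subunit of the mRNA cleavage factor, was 1.77-fold lower (-0.82 ± 0.09; edgeR adjusted p = 1.5e-04), and at -0.54 with the GC trend removed. *NUP93*, a nuclear pore gene on the side of *MT1X*, was at -0.03 ± 0.08 there, and at 0.59 ± 0.08 at 100 µM (edgeR adjusted p = 8.5e-04). *GNAO1*, a G protein subunit gene on the side of *MT2A*, had 5.91, 5.81 and 7.23 CPM at 100 µM, against 1.52, 1.38 and 1.49 CPM in untreated cells (2.11 ± 0.17; edgeR adjusted p = 3.8e-05). *BBS2*, a cilium gene, was also called at 100 µM (0.20 ± 0.07; edgeR adjusted p = 0.049), a call lost on leaving out any 1 of the untreated or 100 µM libraries, or 200 µM replicate 1. Among these flanking genes *NUDT21*, *BBS2* and *GNAO1* lie on the *MT2A* side, and *NUP93* and *HERPUD1* on the *MT1X* side.

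Likeness of pattern was measured as the root mean square difference, over the 9 libraries, of log2 CPM relative to the untreated mean. Nearest to *SLC30A1* among 13967 other genes were *ZNF704* (0.10), *LYST* (0.16), *TIPARP* (0.17), *NFIL3* (0.17) and *ACTN2* (0.17). Nearest to *MT2A* were *C2orf74* (0.08), *KRTCAP2* (0.10), *NRGN* (0.11), *RBAK-RBAKDN* (0.12) and *RPL38* (0.12), and nearest to *MT1X* were *NPIPB3* (0.11), *FKBP1C* (0.14), *PPP2R3A* (0.20), *PAX9* (0.21) and *RTL9* (0.22). None of the members is among the 5 genes nearest to *SLC30A1*, *MT2A* or *MT1X*. The measure describes these 9 libraries, 200 µM replicate 3 included, and carries no test.

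**Figure D5:**
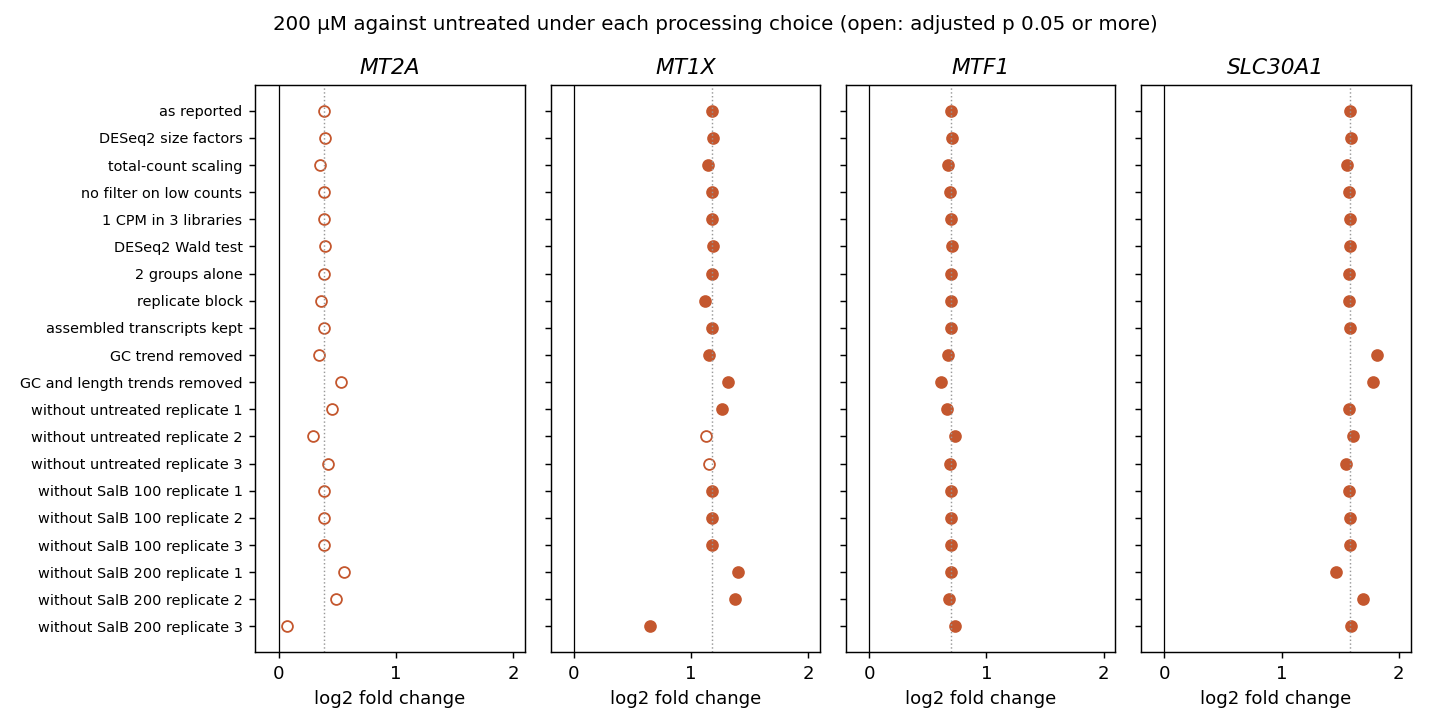
Log2 fold change at 200 µM against untreated cells for the 4 tested genes, as reported and under each of the 19 alternatives; filled points passed an adjusted p of 0.05. *SLC30A1* stays between 1.46 and 1.82 and *MTF1* between 0.61 and 0.74, all filled, while *MT1X* drops to 0.65 and *MT2A* to 0.07 without 200 µM replicate 3.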

How the data were processed

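Polyadenylated RNA of A375 cells was sequenced paired-end in 3 untreated, 3 SalB 100 µM and 3 SalB 200 µM libraries. Extraction used TRIzol and library preparation a NEBNext Ultra kit, per the labels' protocols. The authors deposited raw read counts per gene, without normalization. FastQC, HISAT2, featureCounts and DESeq2 are named with GRCh38, per the submitters' processing notes; not given in the sources used here were their versions, the annotation and the strand setting, so overlapping genes can share reads. The labels call the replicates biological and give 1 batch value.

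The 2142 assembled transcripts without an Ensembl identifier were left out. Of 1012 rows with no symbol, 1000 were matched by identifier. In R 4.3.3 with edgeR 4.0.16, filterByExpr kept 13968 genes, TMM scaled the libraries, and a robust quasi-likelihood fit of all 9 libraries with group as its term (6 residual degrees of freedom) was tested with Benjamini-Hochberg adjustment per comparison. The SE was taken as the absolute log2 fold change over the root of the F statistic. Groups of 3 allow no exact two-sided permutation p below 0.1. Positions, exon lengths, overlaps and GC content came from GENCODE v29, and promoters from RefSeq. A GC value was at hand for 99.3% of tested genes. Replicates within a group differed beyond sampling noise (chi-square per degree of freedom 7.22 to 148), so each library counted as 1.

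The text names all 8 members and, of each list, the 3 called genes with the smallest p per comparison against untreated cells. *NUP93*, *SLC39A10* and *FKBP5* at 200 µM, *SLC30A2* at both doses, *SLC39A11* at 200 µM against 100 µM, and the markers were named beyond that rule. The members and lists were chosen with earlier results of these data known. A table of 100 features, which holds no member, was not used. On simulated counts for 200 µM against control, over 13821 genes, 68.6% of genes changed by 1 on the log2 scale were called, 15.1% of those changed by 0.5 and 0.0514% of unchanged genes. Only 105 genes were changed by 1 and 93 by 0.5, far fewer than the 37.3% called in the real comparison. The adjustment is therefore stricter in the simulation, and its shares do not give the sensitivity of the real test. Alternatives were DESeq2 1.42.0, other scalings and filters, fits of 2 groups, a replicate block, GC and length correction, and leaving out each library.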

Additional observations from a re-analysis of the deposited data

How the results depend on the processing

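Of 228 values of the 4 tested members under 19 alternatives, 208 kept their direction and their side of the threshold. The calls of *SLC30A1* and *MTF1* at 200 µM, against untreated cells and against 100 µM, held in all 19. *MT2A* was called in none. The *MT1X* value at 200 µM against untreated cells lay between 0.65 and 1.40 over the fits without 1 library, and its call ended without untreated replicate 2 or 3. At 200 µM against 100 µM the *MT1X* call ended with total-count scaling (0.78), no filter on low counts (0.87), only the 2 compared groups fitted (0.88), the assembled transcripts kept (0.88) and the GC and length trends removed (0.88), and the fits without 1 library ranged from 0.33 to 1.08. Signs turned for values at 100 µM that were not called: *MT2A* was at -0.14 with the GC trend removed, -0.078 without untreated replicate 2 and -0.045 without 100 µM replicate 1 (range without 1 library -0.078 to 0.083), and *SLC30A1* was at 0.17 with the GC trend removed and 0.13 with the GC and length trends removed. The cause was not tested. Genes called at 100 µM against untreated cells numbered 8417 with only those 2 groups fitted and 3469 to 7943 without 1 library (the highest without 200 µM replicate 3), against 5181 as reported.

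Replicate numbers are shared across the groups, but same-numbered libraries did not deviate together (correlations of -0.23 to 0.05), which gave no sign of pairing. The deviations were taken from means of 3 libraries, and 200 µM replicate 3 weighs on those of its group. The check therefore cannot exclude that the numbers pair the samples. With the replicate block, *MT1X* at 200 µM against 100 µM had a log2 fold change of 0.81 (edgeR adjusted p = 0.086), no other call of a member changed, and the numbers of genes called were 4264 at 100 µM and 4369 at 200 µM against untreated cells, and 5404 between the doses. Of the 33 values of list genes named by the rule of smallest p, 23 held in all alternatives. For the 4 members at 0, depth gives a limit of 0.119 CPM or less only if their reads were counted on their own rows, which was not tested. The 3 libraries a group limit *MT2A* and *MT1X*.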
